A study of Homo sapiens with 6 samples.

Results

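The cadherin superfamily is the set of calcium-dependent adhesion proteins built from repeated extracellular cadherin domains. Its members were taken by gene symbol as the protein-coding genes named CDH, CDHR, PCDH, DSC, DSG, FAT, DCHS or CELSR, which gave 109 of the 61279 genes with transcripts in the data. They comprised 5 type I and 13 type II classical cadherins, 10 atypical and cadherin-related genes, 7 desmosomal cadherins, 6 FAT and DCHS genes, 3 CELSR genes, 12 nonclustered protocadherins and 53 clustered protocadherins. The clustered genes were 15 of the alpha, 16 of the beta and 22 of the gamma cluster. The rule itself uses names and no measured value.

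The libraries were RNA-seq of cells labelled T47D, a hormone receptor-positive breast cancer line, with genotype labelled wild type. DMSO, the solvent, was the control, and 4 μmol/L MI-503, a small molecule that keeps menin from binding MLL1, was the treatment, each for 24 hours with 3 libraries from independent experiments. The comparison asks how expression differs after MLL1 inhibition.

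Total estimated reads ranged from 17404736 to 22168525 per library. The luminal breast identity in the labels did not hold for the libraries labelled DMSO. Summed over 12 luminal breast markers, those libraries had 557 to 742 CPM (counts relative to library size, scaled by TMM between libraries), and the libraries labelled MI-503 had 9352 to 12270. ESR1 had 0, 0.194 and 0 CPM with the DMSO label, and GATA3 had 0, 0.581 and 0 CPM. Summed over 12 prostate markers the order was the opposite, from 6829 to 8291 CPM in the DMSO libraries and from 139 to 144 CPM in the MI-503 libraries, and KLK3 was at 0 in all 3 MI-503 libraries. All 12 prostate markers were lower and 11 of 12 luminal markers were higher with the MI-503 label, TBX3 being the exception. An effect of MI-503 and a difference between the cells behind the groups of libraries cannot be told apart, so every difference given here is one between libraries labelled MI-503 and libraries labelled DMSO. In bulk RNA, fewer cells of a type and less RNA per cell cannot be told apart either.

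Classical cadherins such as E-cadherin bind the same cadherin on the neighbouring cell and hold the actin cytoskeleton through beta-catenin and alpha-catenin. They also bind p120. Desmogleins and desmocollins form desmosomes, which link to keratin filaments through plakoglobin, plakophilins and desmoplakin. FAT, DCHS and CELSR proteins are very large cadherins of planar cell polarity. Clustered protocadherins are best known from neurons, where a choice among many promoters in a row gives each cell its own set of surface proteins, and their promoters are often silenced by DNA methylation in other tissues and in tumours.

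Of the 109 members, 61 passed the filter on low counts and were tested. The clustered protocadherins stood at or near 0 with the DMSO label and were expressed with the MI-503 label, CDH3, CELSR1, CELSR3 and PCDH1 were higher with the MI-503 label, and CDH1, DSG2, DSC2, CDH26 and FAT1 were lower. By edgeR's quasi-likelihood test at an adjusted p under 0.05, 48 members were higher with the MI-503 label, 8 were lower and 5 did not pass. Over all tested genes, 62.9% were called, 31.7% as higher and 31.2% as lower. With a log2 fold change over 2 in size required as well, 45 members were higher and 3 lower (FAT1, CDH26 and DCHS1), against a background of 12.6% and 11.7%. The groups did not overlap for 56 of the 61 tested members, and for 68.7% of all tested genes. The clustered genes passed the filter through the MI-503 libraries, so their share of calls is a description of where they were expressed. Among the 56 members outside the clusters 22 were tested, of which 9 were higher, 8 lower and 5 did not pass, with a median log2 fold change of -0.19 beside -0.0044 over all tested genes. CDH8, CDH19 and FAT2, and on the lower side CDH26, FAT1 and DCHS1, passed the filter only through the group where they were higher. Their calls likewise describe where they were expressed. Of the 48 members under the filter, 10 had no read in any library (CDH9, CDH11, CDH16, CDH17, CDH22, CDHR1, DSG3, FAT3, PCDH8 and PCDH10), and the rest had group means of at most 0.806 CPM.

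**Figure D1:**
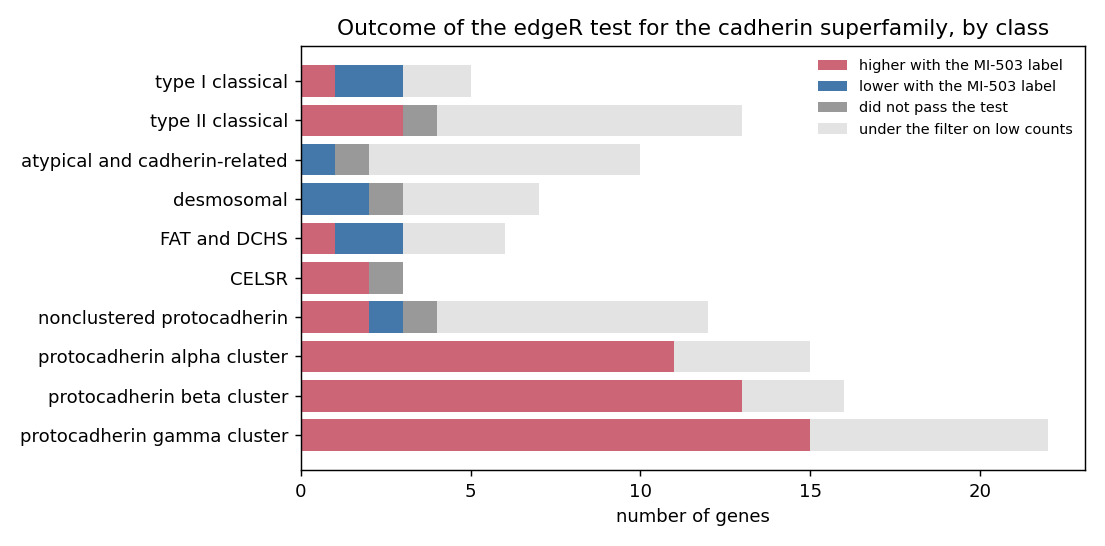
Number of cadherin superfamily genes in each class, coloured by the outcome of edgeR's test of libraries labelled MI-503 against libraries labelled DMSO at an adjusted p under 0.05. All 39 tested clustered protocadherins were higher with the MI-503 label, through whose libraries they passed the filter on low counts. The other classes held 9 higher and 8 lower genes.

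Among the 18 classical cadherins, 7 were tested, and 4 were higher, 2 lower and 1 not called. Shares over all tested genes were 31.7% higher and 31.2% lower. CDH1 (chr16:68737292-68835537, plus strand, GRCh38), which encodes E-cadherin, had 1306, 905 and 766 CPM in the libraries labelled DMSO and 598, 599 and 609 CPM in those labelled MI-503. The groups did not overlap, and the DMSO libraries varied far more among themselves than the MI-503 libraries. The means were 992 ± 281 and 602 ± 6.03 CPM (SD, n = 3 each), and the fitted log2 fold change was -0.72 (SE 0.21, edgeR adjusted p = 0.0115). Without DMSO replicate 1, the highest of the 6 libraries, it was -0.47 (edgeR adjusted p = 0.0265). CDH3 (chr16:68636189-68727468, plus strand), the P-cadherin gene, lies next to CDH1 and moved the other way. It had 5.38, 5.57 and 4.79 CPM with the DMSO label and 55.9, 56.6 and 71.9 CPM with the MI-503 label. Every MI-503 library was above every DMSO library, with a log2 fold change of 3.55 (SE 0.19, edgeR adjusted p = 2.91e-07). CDH2, which encodes N-cadherin, had no read with the DMSO label and 12 reads in all with the MI-503 label (0.0488, 0.262 and 0.356 CPM), which is at least 4.58-fold higher against a floor of 3 reads over the DMSO libraries, and it was under the filter.

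Type II cadherins were represented mainly by CDH24, which is known to bind catenins as the other classical cadherins do. Its level was 9.95, 10.3 and 19.3 CPM with the DMSO label and 48.9, 29.2 and 30.2 CPM with the MI-503 label. The groups were apart although 1 library of each stood above its group, and the log2 fold change was 1.45 (SE 0.31, edgeR adjusted p = 0.00224). CDH8 and CDH19 were the other called type II genes and are named here because they were so few. CDH19, known from glia of peripheral nerves, had no read with the DMSO label and 2.49, 2.98 and 2.61 CPM in the MI-503 libraries, which is at least 58.1-fold higher. CDH8 had 1 read over the DMSO libraries and a mean of 1.03 ± 0.166 CPM (SD) over the others. CDH7 had 1.54 ± 0.169 and 1.32 ± 0.631 CPM, and its groups overlapped (adjusted p = 0.682, edgeR). CDH15, the muscle cadherin of type I, went from 2.15 ± 0.365 to 0.938 ± 0.318 CPM (log2 fold change -1.19, adjusted p = 0.0303, edgeR), a call that was lost without DMSO replicate 1, DMSO replicate 2, MI-503 replicate 2 or MI-503 replicate 3, with adjusted p of 0.0813, 0.0890, 0.134 and 0.0578. Neural marker sums were 24.5 to 34.3 CPM with the DMSO label and 23.6 to 30.7 CPM with the MI-503 label, with overlapping ranges. Of 10 neural markers 4 were tested. SYP was higher (log2 fold change 1.21, edgeR adjusted p = 0.020), NEFL was lower with 177 reads over the DMSO libraries and none over the MI-503 libraries (at least 51.5-fold), and TUBB3 and MAP2, the main part of the sum, were not called.

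CDH26, an atypical cadherin known from epithelium of the airways and gut, was close to off with the MI-503 label. It had 28.8, 16.8 and 20.5 CPM with the DMSO label and 0.488, 0.262 and 0.178 CPM with the MI-503 label. The lowest DMSO library was far above the highest MI-503 library, and the log2 fold change was -6.10 (SE 0.40, edgeR adjusted p = 1.01e-06). CDHR3, the only other tested gene of the atypical and cadherin-related class, had 0.605 ± 0.170 and 0.543 ± 0.121 CPM with overlapping groups (adjusted p = 0.797, edgeR).

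**Figure D2:**
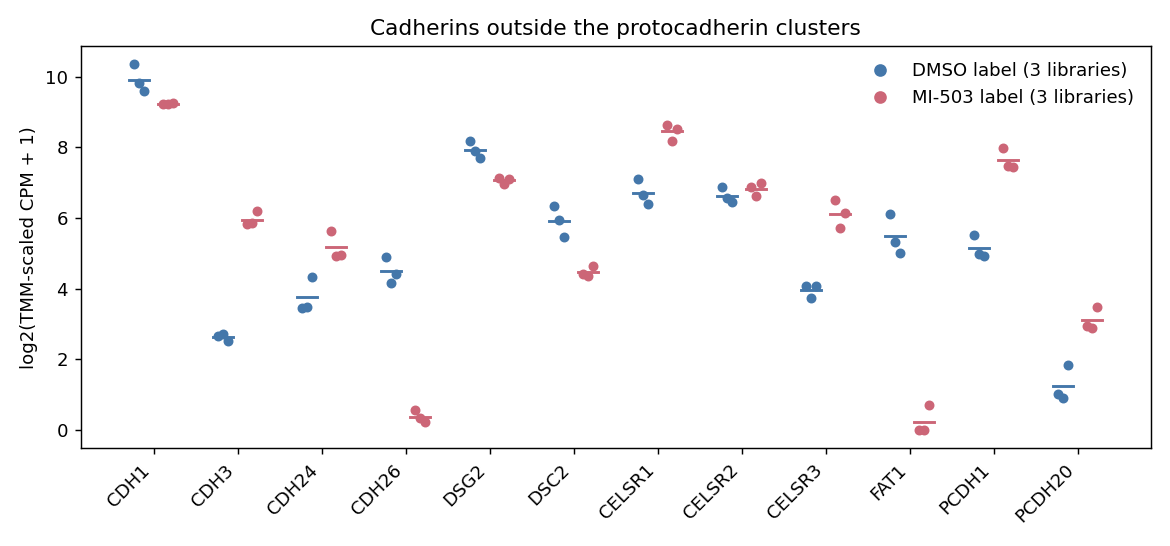
TMM-scaled CPM of 12 cadherin genes outside the protocadherin clusters on a log2 axis after adding 1, with 1 point per library and a line at the group mean. CDH26 and FAT1 fell to near 0 with the MI-503 label, CDH3, CELSR3 and PCDH1 were higher, and the CELSR2 groups overlapped.

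The desmosomal cadherins were lower with the MI-503 label wherever a call was made. Of the 7 genes, which sit side by side on chromosome 18, 3 were tested, with 2 lower, none higher and 1 not called. Beside this small count, 31.2% of all tested genes were lower and 31.7% higher. DSG2 (chr18:31498177-31549008, plus strand), the desmoglein of simple epithelia, had 287, 239 and 206 CPM with the DMSO label and 140, 124 and 137 CPM with the MI-503 label. No library of either label entered the range of the other, and the log2 fold change was -0.87 (SE 0.16, edgeR adjusted p = 0.00102). DSC2 (chr18:31058840-31102522, minus strand), its desmocollin partner, had 80.3, 60.5 and 42.9 CPM against 20.6, 19.7 and 24.2 CPM, a log2 fold change of -1.51 (SE 0.23, edgeR adjusted p = 0.000305). DSC1, a desmocollin of stratified epithelia, had 0.974 ± 0.163 and 0.475 ± 0.216 CPM, which did not pass (adjusted p = 0.0803, edgeR). DSC3 had 32 reads over the DMSO libraries and none over the MI-503 libraries, at least 9.31-fold lower, and DSG1 had 13 and none, at least 3.78-fold lower. Both were under the filter. Basal and squamous markers summed to 11.4 to 17.6 CPM with the DMSO label and 124 to 171 CPM with the MI-503 label. Most of the MI-503 sum came from SFN and KRT15, at means of 110 and 27.7 CPM. Among the 4 tested, SFN and KRT15 were higher and KRT14 and LAMB3 were lower, KRT5 and TP63 were under the filter, and the part of such cells in the desmosomal values was not tested.

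The CELSR genes, vertebrate forms of the fly polarity cadherin Flamingo, did not move as a unit. CELSR1 had 136, 99.2 and 82.9 CPM with the DMSO label and 396, 291 and 369 CPM with the MI-503 label (1.73 ± 0.21 on the log2 scale, SE, edgeR adjusted p = 6.81e-05). CELSR3 had 15.8, 12.3 and 15.9 CPM against 90.0, 52.0 and 69.9 CPM, a log2 fold change of 2.27 (SE 0.23, edgeR adjusted p = 1.93e-05). For these genes all MI-503 libraries were above all DMSO libraries. CELSR2 had 117, 93.6 and 87.1 CPM against 116, 96.8 and 126 CPM, so its groups overlapped (0.19 ± 0.17 on the log2 scale, SE, edgeR adjusted p = 0.365).

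FAT1, a giant cadherin that restrains growth through the Hippo pathway, was close to off with the MI-503 label. It had 68.4, 38.8 and 31.5 CPM with the DMSO label and 0, 0 and 0.653 CPM with the MI-503 label. All 11 reads with the MI-503 label came from replicate 3, against 3004 reads with the DMSO label, and the fitted log2 fold change of -7.82 (SE 0.75, edgeR adjusted p = 1.39e-05) depends on the prior count for the libraries at 0. Over the alternatives it ranged from -12.90 to -5.97 and remained lower in each, the first of these being the value without MI-503 replicate 3. FAT2, at 0.259 ± 0.142 and 2.61 ± 0.720 CPM, was higher (log2 fold change 3.29, adjusted p = 0.000431, edgeR). DCHS1, the ligand of FAT4, was lower at 1.17 ± 0.518 and 0.155 ± 0.124 CPM (log2 fold change -2.84, adjusted p = 0.00321, edgeR). FAT4 itself had 5 reads in all.

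Outside the clusters, PCDH1 (chr5:141853090-141879246, minus strand) was the most abundant protocadherin. PCDH1, known in airway epithelium, had 45.1, 30.5 and 29.2 CPM with the DMSO label and 253, 176 and 172 CPM with the MI-503 label. The groups were well apart, with a log2 fold change of 2.52 (SE 0.23, edgeR adjusted p = 1.01e-05). PCDH20 had 1.04, 0.871 and 2.60 CPM against 6.78, 6.49 and 10.1 CPM (2.36 ± 0.45 on the log2 scale, SE, edgeR adjusted p = 0.00115). PCDH7 was lower at 2.84 ± 0.797 and 1.03 ± 0.392 CPM (adjusted p = 0.0127, edgeR), a call lost without MI-503 replicate 1 or replicate 2 (adjusted p = 0.0516 and 0.0639). PCDH12 did not pass the test (adjusted p = 0.636, edgeR).

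The clustered protocadherins occupy a single stretch of chromosome 5 in GRCh38, with the alpha genes at chr5:140786136-141012347, the beta genes at chr5:141051374-141249365 and the gamma genes at chr5:141330514-141512977. Each gene has its own promoter and a large first exon that codes for the whole extracellular part. In the annotation, all 15 alpha genes share 3 constant exons of 59, 89 and 2721 bases, and all 22 gamma genes share 3 of 59, 89 and 2029 bases, while beta genes have none in common. Their promoters are known to carry a short conserved element read by the insulator protein CTCF. RefSeq promoter windows of 300 bases (250 before and 50 after the start, GRCh38.p14) were at hand for 84 of the 109 members and 47 of the 53 clustered ones. For each cluster, the run of 9 bases found in most of its windows was taken, reading the sense strand, and then searched on both strands in all 35116 windows. For beta genes it was GGTGGCGCT, held by 13 of 14 beta windows and 0.501% of all windows. For gamma genes it was GCGCCGCTG, held by 10 of 20 gamma windows and 1.28% of all windows, and for alpha genes GATGTCGCT, held by 9 of 13 alpha windows and 0.105% of all windows. These runs were chosen on the same windows in which they are counted. They overlap in the 4 letters CGCT, which 70.0% of all windows hold. None of the other 37 member windows held the beta or alpha run and 1 held the gamma run.

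The windows printed below show the run in genes that were expressed and in genes that were near 0 with the MI-503 label. They come only from genes with the run, from both ends of those genes' range in each cluster. The run is in capitals with 15 bases on each side, all on the plus strand of chromosome 5.
PCDHB8, chr5:141177773-141177811: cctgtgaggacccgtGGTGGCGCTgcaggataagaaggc
PCDHB13, chr5:141213861-141213899: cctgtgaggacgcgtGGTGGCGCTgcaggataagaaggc
PCDHB5, chr5:141135175-141135213: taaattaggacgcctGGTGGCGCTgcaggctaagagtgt
PCDHB12, chr5:141208639-141208677: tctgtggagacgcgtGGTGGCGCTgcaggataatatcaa
PCDHB4, chr5:141121719-141121757: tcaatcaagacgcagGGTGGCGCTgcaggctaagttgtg
PCDHGA10, chr5:141412928-141412966: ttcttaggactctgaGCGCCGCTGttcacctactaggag
PCDHGB5, chr5:141397860-141397898: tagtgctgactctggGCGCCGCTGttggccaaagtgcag
PCDHGA8, chr5:141392565-141392603: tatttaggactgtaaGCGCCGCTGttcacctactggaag
PCDHGA11, chr5:141420969-141421007: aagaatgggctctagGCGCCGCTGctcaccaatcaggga
PCDHA1, chr5:140786082-140786120: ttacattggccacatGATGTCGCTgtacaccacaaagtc
PCDHA4, chr5:140806975-140807013: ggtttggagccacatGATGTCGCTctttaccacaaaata
PCDHA8, chr5:140841126-140841164: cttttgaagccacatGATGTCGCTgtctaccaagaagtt
In the gamma and alpha clusters, levels of genes with and without the run overlapped. With the MI-503 label, beta genes with it ranged from 0.608 to 44.01 CPM (means of 3 libraries), gamma genes from 0.370 to 47.4 CPM and alpha genes from 0.301 to 14.1 CPM. Gamma genes without it ranged from 0.0884 to 80.5 CPM and alpha genes without it from 0.111 to 23.9 CPM. PCDHGC3 and PCDHA11, the highest genes of the gamma and alpha clusters in CPM, were among those without it. The 1 beta gene whose window lacked the run, PCDHB1, was at 0.0349 CPM, below the 13 beta genes with it. The run began 2 to 84 bases before the start in beta windows, 44 to 99 in gamma windows and 43 to 86 in alpha windows. A match describes the letters of the window and not binding by a factor.

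PCDHGA10 and PCDHGA11 are genes of the same subfamily, with means of 47.4 and 0.370 CPM with the MI-503 label. Their whole windows are given for comparison, again with the run in capitals.
PCDHGA10, chr5:141412737-141413036: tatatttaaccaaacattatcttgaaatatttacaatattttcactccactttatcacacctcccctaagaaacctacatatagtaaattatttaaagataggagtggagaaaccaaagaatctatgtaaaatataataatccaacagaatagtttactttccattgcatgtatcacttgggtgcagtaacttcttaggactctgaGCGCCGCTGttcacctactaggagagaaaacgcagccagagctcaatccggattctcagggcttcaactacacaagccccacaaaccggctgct
PCDHGA11, chr5:141420801-141421100: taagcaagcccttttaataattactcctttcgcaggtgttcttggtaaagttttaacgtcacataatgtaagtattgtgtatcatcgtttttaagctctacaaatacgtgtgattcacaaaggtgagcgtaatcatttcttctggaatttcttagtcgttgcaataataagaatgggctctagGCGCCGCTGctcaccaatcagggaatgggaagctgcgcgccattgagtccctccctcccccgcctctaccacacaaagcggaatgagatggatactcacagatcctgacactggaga

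With the DMSO label the clusters were nearly silent, as 51 of the 53 genes had a mean under 1 CPM, 19 had no read and the highest value in any library was 2.22 CPM. With the MI-503 label every gene had reads, 22 had a mean of at least 5 CPM and 16 stayed under 1 CPM. The mean was higher with the MI-503 label for 51 genes and lower for 2, PCDHGA8 and PCDHGA12, both with overlapping groups. All 39 tested genes were called higher and 38 had no overlap, beside 31.7% and 68.7% of all tested genes. Their median log2 fold change was 6.19, or 5.85 with genes without DMSO reads at their bound. They passed the filter on low counts through the MI-503 libraries, so these values describe where they were expressed. The exception to the gap was PCDHGA2, at 1.04, 0.290 and 0.137 CPM against 2.00, 0.994 and 2.79 CPM (adjusted p = 0.0313, edgeR). Its call was lost without DMSO replicate 2, DMSO replicate 3, MI-503 replicate 1 or MI-503 replicate 3 (adjusted p = 0.112, 0.0733, 0.0596 and 0.101).

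**Figure D3:**
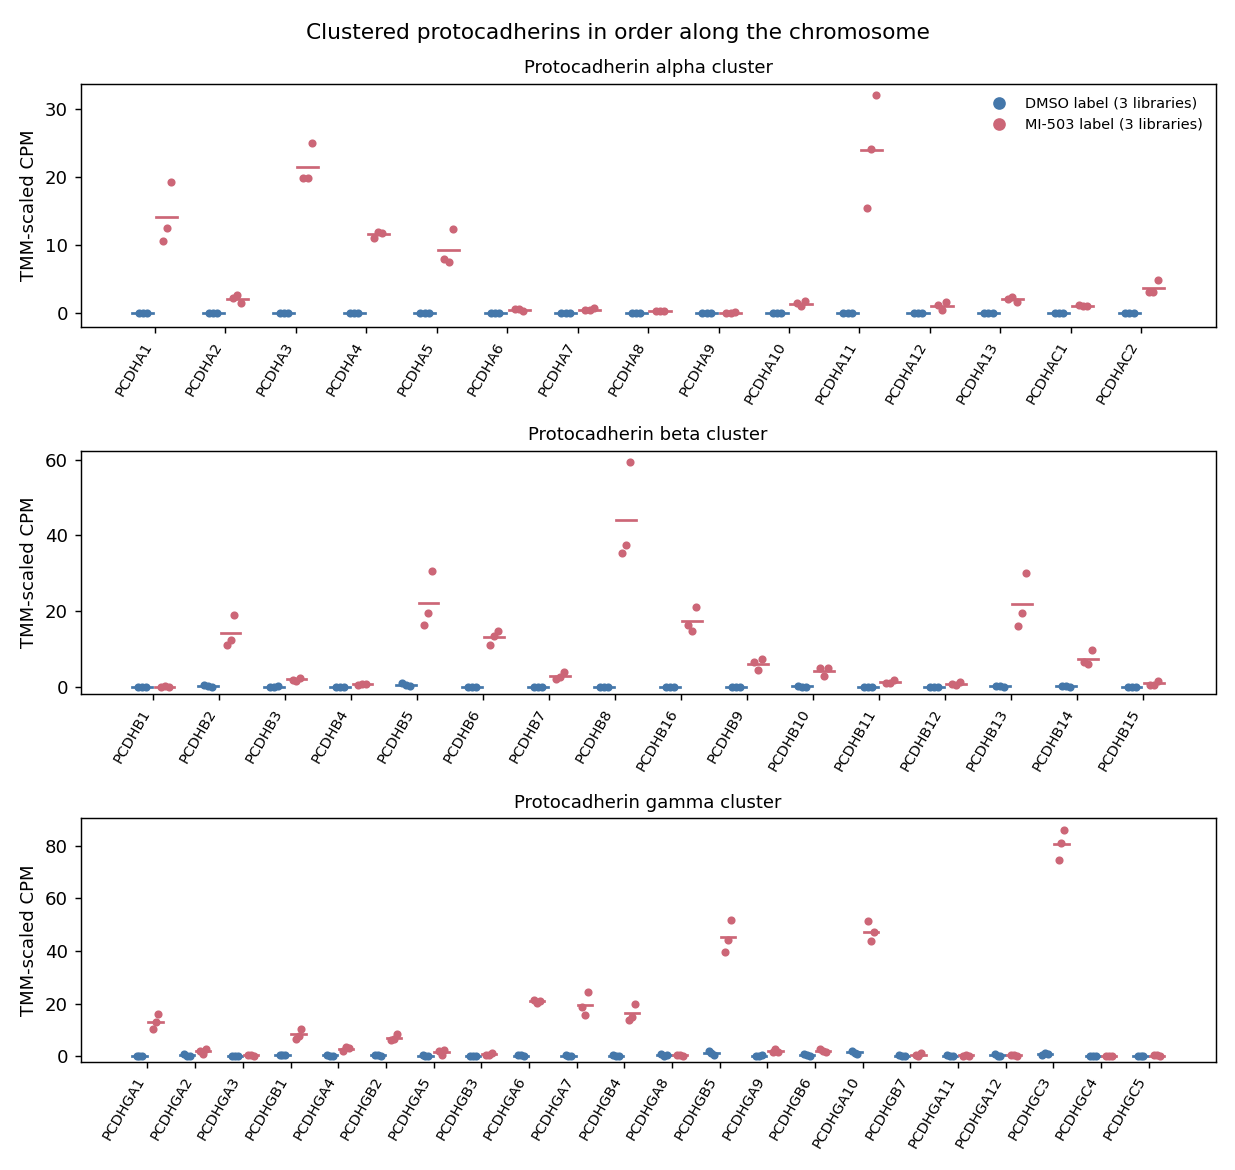
TMM-scaled CPM of the 53 clustered protocadherins in their order along the chromosome, with 1 panel per cluster, 1 point per library and a line at each group mean. DMSO points stay at or below 2.22 CPM, and MI-503 points lie far above them at some genes such as PCDHA11, PCDHB8 and PCDHGC3 while their neighbours remain near 0.

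Expression with the MI-503 label was uneven along each cluster. In the alpha cluster, summed CPM were 0.0905, 0.145 and 0 with the DMSO label and 77.7, 87.9 and 115 with the MI-503 label. PCDHA11 had 15.5, 24.1 and 32.1 CPM with the MI-503 label and a single read with the DMSO label, a ratio of 1510 (95% counting interval 271 to 59697). PCDHA3 had no DMSO read and 19.8, 19.8 and 24.9 CPM in the MI-503 libraries, which is at least 460-fold higher (edgeR adjusted p = 8.53e-07). PCDHA1 at 10.6, 12.4 and 19.2 CPM and PCDHA4 at 11.1, 11.9 and 11.8 CPM were likewise without a DMSO read and at least 298-fold and 249-fold higher. Per length with the MI-503 label, PCDHA1 (6.76 ± 2.15 TPM), PCDHA11 (6.71 ± 2.56 TPM) and PCDHA3 (6.43 ± 0.944 TPM) did not differ beyond their spread. PCDHA5, with 2 DMSO reads, had 9.28 ± 2.67 CPM with the MI-503 label. Between and beside them, PCDHA6, PCDHA7, PCDHA8 and PCDHA9 had means of 0.111 to 0.536 CPM with the MI-503 label and were under the filter. The isoforms of the alpha cluster's end, PCDHAC1 and PCDHAC2, which neurons are known to express from both chromosomes, were both among the called genes.

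The beta cluster summed to 2.08, 0.920 and 0.410 CPM with the DMSO label and 130, 137 and 208 CPM with the MI-503 label. PCDHB8, the highest beta gene per length with the MI-503 label, had 35.2, 37.6 and 59.3 CPM against a single DMSO read, a ratio of 2794 (95% counting interval 501 to 110387, edgeR adjusted p = 1.28e-07). PCDHB5 had 0.905, 0.436 and 0.0912 CPM with the DMSO label and 16.2, 19.4 and 30.7 CPM with the MI-503 label (5.51 ± 0.55 on the log2 scale, SE, edgeR adjusted p = 1.77e-05). PCDHB13 had 0.226, 0.145 and 0.0456 CPM against 15.9, 19.5 and 30.1 CPM (7.23 ± 0.47 on the log2 scale, SE, edgeR adjusted p = 9.5e-07). In each of these the third MI-503 library was the highest, as it was for the cluster sums. PCDHB16 (no DMSO read, 17.3 ± 3.31 CPM, at least 369-fold higher) and PCDHB9 (no DMSO read, 6.01 ± 1.50 CPM, at least 129-fold higher) follow PCDHB8 along the chromosome. PCDHB2, PCDHB6 and PCDHB14 were higher at means of 7.34 to 14.1 CPM. PCDHB1, PCDHB4 and PCDHB12 were under the filter, with means of 0.0349 to 0.806 CPM with the MI-503 label.

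The gamma cluster had most of the reads found with the DMSO label, at 13.9, 7.26 and 6.11 CPM in sum, and 257, 261 and 301 CPM with the MI-503 label. PCDHGC3, a C-type isoform known for broad expression, was the highest clustered gene per length with the MI-503 label, with 0.633, 1.16 and 1.09 CPM against 74.4, 81.2 and 86.0 CPM (6.38 ± 0.25 on the log2 scale, SE, edgeR adjusted p = 4.76e-08). PCDHGA10 had 2.22, 1.26 and 1.09 CPM with the DMSO label and 51.3, 43.6 and 47.2 CPM with the MI-503 label (4.95 ± 0.28 on the log2 scale, SE, edgeR adjusted p = 4.32e-07). PCDHGB5 had 2.22, 1.31 and 0.593 CPM against 39.6, 44.1 and 51.7 CPM (5.03 ± 0.38 on the log2 scale, SE, edgeR adjusted p = 2.98e-06). These 3 genes were in tight ranges with the MI-503 label. PCDHGA6, PCDHGA7, PCDHGB4, PCDHGA1, PCDHGB1 and PCDHGB2 followed at means of 7.17 to 20.9 CPM. Near 0 with both labels were PCDHGA8, PCDHGA11, PCDHGA12 and PCDHGB7, which ranged from 0.182 to 0.489 CPM in the DMSO group and from 0.369 to 0.642 CPM in the MI-503 group. PCDHGA3 was under the filter, with means of 0.0452 CPM in the DMSO group and 0.464 CPM in the MI-503 group, which did not overlap. The other C-type genes PCDHGC4 and PCDHGC5 had no DMSO read and means of 0.0884 and 0.350 CPM.

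Because cluster members share exons and resemble each other, reads may be split among them by the quantifier. The share of 31-base words of a gene's most abundant transcript (sequence of GENCODE release 44) that occur in no other member gene had a median of 79.9% for alpha, 79.5% for beta and 84.4% for gamma genes, and was as low as 27.4%, 44.1% and 38.4%. For other classes it was at least 98.2%. Of the leading genes, PCDHA11 was at 38.3%, PCDHB8 at 44.1%, PCDHGB5 at 40.4%, PCDHGA10 at 44.3% and PCDHGC3 at 54.5%, so their own levels are less certain than the sum over their cluster. Summed per length as TPM, which divides reads by transcript length, the clusters had 0.0726 ± 0.0984 and 31.4 ± 6.35 (alpha), 0.483 ± 0.346 and 59.9 ± 16.4 (beta), and 3.45 ± 1.73 and 85.9 ± 7.71 (gamma; SD, n = 3 each, DMSO label first). Other genes within the same stretch differed in their own ways. TAF7, a subunit of the general transcription factor TFIID between the beta and gamma genes, was on with both labels at 119, 110 and 88.7 CPM against 173, 210 and 222 CPM (0.93 ± 0.17 on the log2 scale, SE, edgeR adjusted p = 0.000881). SLC25A2 had no read with the DMSO label and 4 with the MI-503 label.

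Per length, the make-up of the cadherin transcripts differed between the labels more than their sum did. All members together had 469 ± 130 TPM with the DMSO label and 582 ± 29.4 TPM with the MI-503 label (SD, n = 3), and the DMSO libraries spanned 371 to 616 TPM, which contains the range of 550 to 608 TPM with the MI-503 label. CDH1 made up 66.8%, 64.2% and 63.7% of that sum in the libraries labelled DMSO and 28.9%, 32.2% and 28.1% in those labelled MI-503. DSG2 accounted for 13.6% ± 0.740 and 5.54% ± 0.108, and DSC2 for 3.61% ± 0.438 and 0.958% ± 0.127. Clustered protocadherins together accounted for 1.03%, 0.765% and 0.665% with the DMSO label and 26.2%, 30.2% and 34.8% with the MI-503 label. PCDH1 went from 2.60% ± 0.0955 to 10.4% ± 2.18, CDH3 from 0.687% ± 0.195 to 5.07% ± 0.918, and the CELSR genes from 7.42% ± 0.265 to 14.0% ± 2.57 of the sum, and no group overlapped the other in any of these shares.

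**Figure D4:**
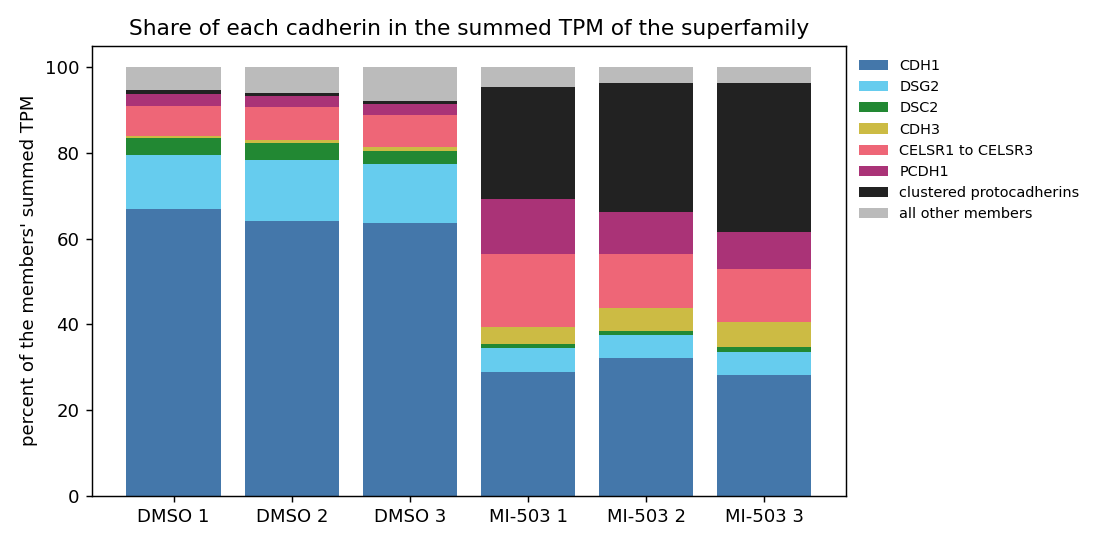
Percent of the summed TPM of the cadherin superfamily genes taken by each gene or class, with 1 bar per library. CDH1 takes 63.7% to 66.8% with the DMSO label and 28.1% to 32.2% with the MI-503 label, where clustered protocadherins take 26.2% to 34.8%.

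In order of level per length with the DMSO label, CDH1 (306 ± 93.0 TPM) was followed by DSG2 (63.2 ± 14.2 TPM), CELSR1 (18.3 ± 5.86 TPM), DSC2 (17.1 ± 5.88 TPM), CELSR2 (14.3 ± 2.33 TPM) and PCDH1 (12.3 ± 3.85 TPM). The ranges of the last 4 overlapped from one to the next. With the MI-503 label the order was CDH1 (172 ± 3.88 TPM), PCDH1 (60.2 ± 12.95 TPM), CELSR1 (55.5 ± 11.6 TPM), DSG2 (32.2 ± 2.03 TPM), CDH3 (29.5 ± 5.67 TPM), PCDHGC3 (27.1 ± 1.82 TPM) and PCDHB8 (20.7 ± 6.12 TPM). The ranges of PCDH1 and CELSR1 overlapped there, and that of CDH3 overlapped those of DSG2 and PCDHGC3, while all DSG2 libraries were above all PCDHGC3 libraries. CDH1 was first in all 6 libraries. One annotated transcript of CDH1, CDH1-201 of 4811 bases, carried 88.2% to 96.8% of the gene's TPM in the DMSO libraries and the main transcripts of DSG2 and DSC2 were as dominant. For CDH3 no transcript was: CDH3-203, annotated as a target of nonsense-mediated decay, had 11.2, 7.996 and 12.7 TPM with the MI-503 label and the coding CDH3-202 had 7.95, 10.6 and 12.96 TPM.

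The intracellular partners of the cadherins were called in both directions, as tested genes in general were (31.7% higher and 31.2% lower). Among 20 catenin and plaque genes, 18 were tested, with 6 higher, 5 lower and 7 not called, and a median log2 fold change of 0.038. JUP, plakoglobin, which serves both adherens junctions and desmosomes, had 349, 325 and 278 CPM with the DMSO label and 913, 1018 and 1063 CPM with the MI-503 label (1.65 ± 0.16 on the log2 scale, SE, edgeR adjusted p = 1.57e-05). PPL and EVPL, periplakin and envoplakin of the cornified envelope, were higher with log2 fold changes of 2.56 and 1.85, as was the desmosomal plaque protein DSP at 1.26. PKP1, plakophilin 1, had 7.87, 5.33 and 4.88 CPM against 0.195, 0.105 and 0.356 CPM, with a log2 fold change of -4.77 (adjusted p = 2.24e-05, edgeR). The catenins CTNNA1, CTNND1 and CTNNB1 differed less than JUP. On the log2 scale CTNNA1 was at 0.40 and CTNND1 at 0.50, both called higher. CTNNB1 was at 327 ± 37.3 and 310 ± 31.4 CPM (log2 fold change -0.08, adjusted p = 0.677, edgeR). AFDN, EPB41L5 and PKP3 of the same list were lower at -1.08, -1.15 and -0.86 on the log2 scale.

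**Figure D5:**
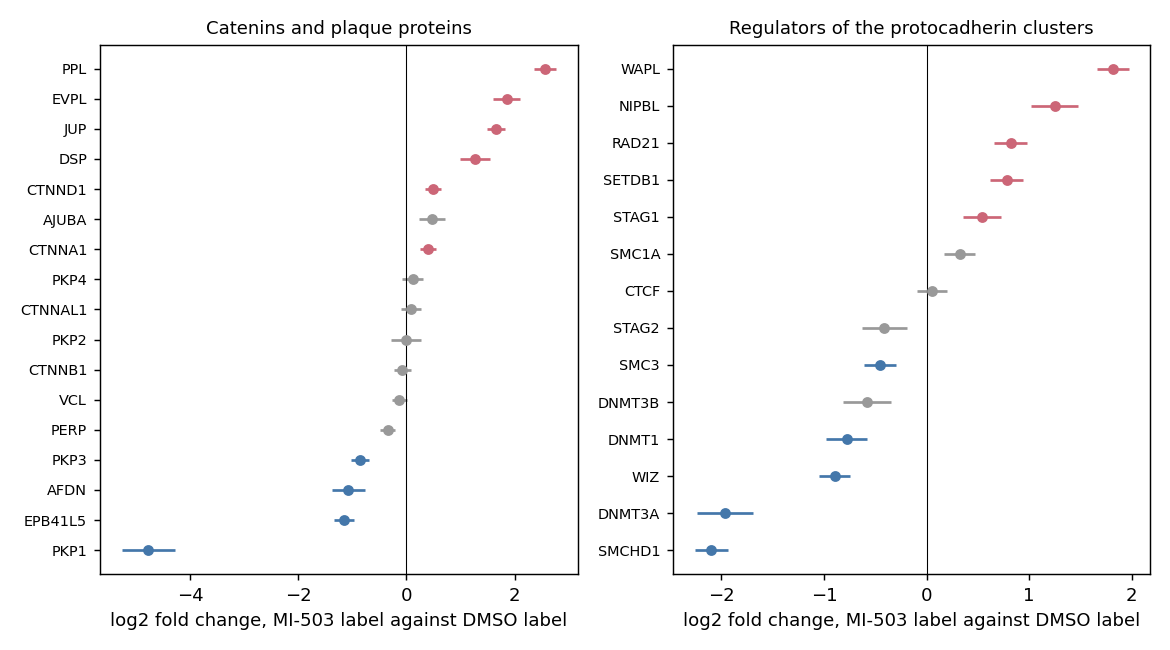
Fitted log2 fold change, MI-503 label against DMSO label, of catenin and plaque genes (left) and of regulators of the protocadherin clusters (right). Bars are 1 standard error, derived from the test's F value. Red points were called higher, blue points lower and grey points were not called. CTNNA2, with no read with the MI-503 label, is left out. PPL at 2.56 and PKP1 at -4.77 mark the ends on the left, WAPL at 1.81 and SMCHD1 at -2.10 those on the right.

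Of 14 genes known to act at the protocadherin clusters, all were tested, 5 were higher, 5 lower and 4 not called. Their median log2 fold change was -0.18, and 31.7% of all tested genes were higher and 31.2% lower. SMCHD1, which silences clustered protocadherins and the inactive X chromosome, had 163, 129 and 139 CPM with the DMSO label and 32.4, 37.4 and 30.5 CPM with the MI-503 label (-2.10 ± 0.16 on the log2 scale, SE, edgeR adjusted p = 3.49e-06). DNMT3A, a de novo DNA methyltransferase, had 69.2, 52.1 and 33.6 CPM against 15.7, 10.7 and 13.2 CPM (-1.97 ± 0.27 on the log2 scale, SE, edgeR adjusted p = 0.00016). WAPL, which takes cohesin off chromatin, moved the other way, at 48.7, 40.7 and 49.6 CPM against 151, 180 and 158 CPM (1.81 ± 0.16 on the log2 scale, SE, edgeR adjusted p = 6.56e-06). The cohesin loader NIPBL and the cohesin subunits RAD21 and STAG1 were higher at 1.25, 0.82 and 0.54 on the log2 scale, the subunit SMC3 was lower at -0.45 and SMC1A and STAG2 were not called. Of the other regulators, DNMT1 and WIZ were lower at -0.78 and -0.89, and SETDB1, which writes silencing H3K9 methylation, was higher at 0.78. CTCF was at 77.1 ± 6.10 and 79.9 ± 6.12 CPM (log2 fold change 0.05, adjusted p = 0.78, edgeR). Whether any of these levels bears on the clusters was not tested.

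Of 21 genes listed as regulators of cadherin transcription, 17 were tested, with 5 higher, 4 lower and 8 not called. The median log2 fold change was 0.17, and 31.7% of all tested genes were higher and 31.2% lower. KLF8, a repressor known to act at the CDH1 promoter, had 0.769, 0.678 and 0.182 CPM with the DMSO label and 117, 76.7 and 65.5 CPM in the MI-503 libraries (log2 fold change 7.30, adjusted p = 4.41e-07, edgeR). The epithelial genes GRHL1, ESRP1 and GRHL3 were higher, with log2 fold changes of 1.77, 1.93 and 2.28. GRHL2, ELF3, ESRP2, OVOL1 and OVOL2 of the same list were not called. SNAI2, a repressor of CDH1, had 1.31, 2.23 and 4.01 CPM against 0.0488, 0 and 0 CPM and was lower (adjusted p = 0.000107, edgeR). TWIST1, TCF4 and CTBP2 were also lower, while SNAI3 was higher (log2 fold change 1.11, adjusted p = 0.0273, edgeR). SNAI1 was not called (adjusted p = 0.473, edgeR), and ZEB1 and ZEB2 were under the filter with both labels. Of 12 mesenchymal markers, 7 were tested, of which 2 were higher, 4 lower and 1 not called. COL1A1 and ACTA2 were higher, with log2 fold changes of 1.41 and 1.02, and FN1, COL6A1, SPARC and PDGFRB were lower. The sum over all 12 was 644 to 995 CPM with the DMSO label and 240 to 346 CPM with the MI-503 label. FN1 was the largest part of it, at 624 ± 178 and 153 ± 40.2 CPM, and COL6A1 was at 174 ± 53.1 and 11.0 ± 3.44 CPM. COL1A2, COL3A1, LUM, DCN and THY1 were under the filter.

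Among 21 genes of planar polarity and the FAT pathway, 19 were tested, with 10 higher, 4 lower and 5 not called (median log2 fold change 0.65). Shares over all tested genes were 31.7% higher and 31.2% lower. FZD6, a Frizzled receptor that CELSR1 works with, had 91.6, 75.7 and 48.8 CPM with the DMSO label and no read in the MI-503 libraries, at least 1356-fold lower. FJX1, a Golgi kinase family member that tunes FAT and DCHS binding in flies, had 0.407, 0.387 and 0.182 CPM against 36.2, 52.6 and 72.7 CPM (log2 fold change 7.35, adjusted p = 2.57e-07, edgeR). AMOTL2, an angiomotin that holds YAP at junctions, went from 0.250 ± 0.149 to 146 ± 7.20 CPM, and WWTR1, which encodes the YAP partner TAZ, from 3.22 ± 0.801 to 71.5 ± 6.03 CPM. Their log2 fold changes were 9.17 and 4.47 (adjusted p = 2.42e-08 and 1.87e-07, edgeR). Of 14 genes of cadherin cleavage and turnover, 13 were tested, with 8 higher, 2 lower and 3 not called (median log2 fold change 0.78). Beside them stand the same shares over all tested genes, 31.7% higher and 31.2% lower. The endosomal regulators RAB11A, ARF6 and NUMB were higher at 1.39, 1.07 and 1.02 on the log2 scale, and the protease MMP7 was lower, at 9.48 ± 2.23 and 0.0570 ± 0.0595 CPM. ADAM10, the main sheddase of E-cadherin, was at 125 ± 32.0 and 122 ± 8.23 CPM (adjusted p = 0.88, edgeR).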

How the data were processed

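Cells labelled T47D received DMSO or MI-503, their RNA was purified on RNeasy columns, and Novogene made and sequenced the libraries. The authors quantified transcripts with salmon (Illumina DRAGEN) and deposited estimated counts of reads per transcript without normalization, and TPM, which salmon computed within each library from those counts and the effective lengths. The submitters' processing notes name GRCh38.p13 and hg38. The sources used here do not name the salmon version, annotation release or trimming.

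Identifiers were matched to GENCODE release 44 (98.8% of 232117 transcripts, at least 99.16% of the reads of each library). Estimated counts were summed per gene, rounded and scaled by TMM. Libraries were grouped by label and compared with edgeR 4.0.16's quasi-likelihood test (R 4.3.3) on the 16442 genes left by filterByExpr, and p-values were adjusted over all of them by the Benjamini-Hochberg method. The p-values set the difference between labels against the spread among 3 libraries per label. CPM are TMM-scaled and errors are SDs unless marked SE. Each SE was derived as the size of the log2 fold change divided by the square root of the test's F value. For genes near 0 in a group it is approximate. The floor for a group without reads was 3 reads over the group (0.0464 CPM for DMSO, 0.0531 CPM for MI-503), and ratios with 1 to 3 reads have exact 95% intervals. Without molecular identifiers, these floors and intervals describe counting error alone. TPM were used to compare levels between genes. Tables were made with Python 3.11.15 and pandas 2.3.3. The test was tested on simulated data.

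Members and gene lists were chosen with earlier results of these data known. Named with values were CDH1, CDH2, CDH3, members whose higher group averaged 5 CPM or more, the highest member of each cluster and, of each list, up to 4 genes by adjusted p. Further genes were named after their values were seen. The lists were catenins and plaque proteins, regulators of cadherin transcription, protocadherin promoter choice, planar polarity and FAT pathway, cleavage and turnover, and markers of luminal breast, prostate, basal, mesenchymal and neural cells. The test was repeated with RLE or upper-quartile scaling, without a filter, with a filter of 1 CPM in 3 libraries, with DESeq2 1.42.0, length-scaled counts, limma 3.58.1 on log2(TPM + 0.1), a replicate block and each library left out.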

Additional observations from a re-analysis of the deposited data

How the results depend on the processing

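Of the 56 called members, 56 remained called in the same direction with RLE scaling, upper-quartile scaling, DESeq2 and limma on TPM, 55 with no filter, 54 with length-scaled counts and 47 with a filter of 1 CPM in 3 libraries, where the other 9 were not tested. Leaving out each library gave 48 to 52 members higher and 6 to 8 lower, 39 to 43 clustered protocadherins higher, and over all genes 4804 to 5375 higher and 4548 to 5229 lower. Deviations of same-numbered libraries correlated at -0.0981, 0.0706 and -0.089, within the range of -0.114 to 0.168 for differently numbered ones. No pairing by replicate number was seen, but 3 libraries per label cannot exclude it. With the replicate number as a block, 48 members were higher, 7 lower and 39 clustered protocadherins higher, and 5071 genes were higher and 4913 lower over all genes. CDH15 was not called with the block (adjusted p = 0.0756), no filter (0.0578) or length-scaled counts (0.0725), and its highest value over all alternatives was 0.134. All 35 named members with a fitted fold change kept direction and call in the 14 alternatives, 490 values in all, CDH1 reaching an adjusted p of 0.0436 at most. Summed as TPM, the log2 ratio of the means was 8.75 in place of 10.21 for the alpha cluster, whose DMSO sums were at most 0.145 CPM, and 4.64 in place of 4.91 for the gamma cluster. Upper-quartile scaling moved the median log2 fold change of all genes to -0.10. No count of calls moved by over 1.5 times. Depth limits the members near 0, where 3 reads over a group are 0.0464 to 0.0531 CPM.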
